A study of Mus musculus with 12 samples.

Results

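Of 546 genes in the co-culture table that the authors deposited, 117 (21.4%) were at least doubled in each of 3 co-culture libraries over the control library of the same number. This account covers 103 of them. They were picked by these values, and 51 named genes (epithelial, immediate early, vascular and other genes, of which 14 passed the same criterion) were taken out of the set, so the height of the 103 over their own controls was fixed by the choice and is given as a description, with no test. All 103 are protein coding.

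The study grew aggregates of 129w2 cells (a line of mouse embryonic stem cells, passages 13 to 16) and sequenced their poly(A) RNA in 12 libraries, 3 in each of 4 groups. All aggregates were seeded at 3000 cells per well on day 0 in a serum-free medium with Matrigel, received BMP4 at 2 ng/ml on day 3 and bFGF at 25 ng/ml with RA at 1 μM on day 4, and were replated on day 5. The co-culture group was then kept with mSMGs, an abbreviation that the labels leave unexplained, from day 5 to day 7, and its controls (D7) were collected on day 7 without them. The cocktail group received a mixture of factors in place of co-culture, with its own D7 controls. Neither what the mixture held nor when it was given is stated in the labels. They also give no day of collection for the cocktail group. A difference in day of collection and the mixture therefore cannot be told apart in that comparison. Nor do the labels tell separate cultures from repeat libraries of a group, so a p-value here reflects library spread that may be technical.

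Values are FPKM (a level of fragments corrected for transcript length and library size). The header of the co-culture table names no unit, and FPKM was inferred from its range and from its match to the other table. That match is a correlation, which another unit could also give, so the unit of the co-culture values is not settled. The depth of the co-culture libraries is unknown. In these bulk libraries, fewer cells of a type and less RNA per cell cannot be told apart. Carry-over of mSMG RNA into co-culture libraries was not tested.

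The 103 genes do not form one pathway. Several belong to programmes that cells are known to switch on when they spread, are stretched or repair a wound: annexins, galectin and caveolar coat proteins line the plasma membrane, the lamina stiffens the nucleus, and chemokines and cytokines call other cells. Others are known targets of p53, the transcription factor of the DNA damage response, or enzymes of lipid signalling. Organs that branch as they form are known to depend on signals between epithelium, mesenchyme, vessels and nerves, which is where ligands such as Cxcl12, Lif and Artn and receptors such as Nrp1 are known to act.

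Among the listed genes, the libraries stood apart in a way that touches every value below. Only 47 of the 546 were neither doubled in both pairs 1 and 2 nor halved in both, so the list was probably selected on these pairs. Such a selection and a difference between the libraries themselves cannot be told apart here. Co-culture 2 was the highest of the co-culture libraries for 76 of the 103 genes, co-culture 1 for 24 and co-culture 3 for 3, and co-culture 3 was the lowest for 91. Over all 546 listed genes, co-culture 2 was highest for 54.2% and co-culture 3 lowest for 382. Among 273 genes doubled in pairs 1 and 2 only, co-culture 2 was highest for 71.1% and co-culture 3 lowest for 254. This order is therefore not particular to the 103. Control 3 was the lowest control for 73 genes (70.9%), against 41.8% of the other 443 listed genes. A low control 3 favours membership, since each co-culture library was set against the control of its own number. The median of control 3 over the mean of controls 1 and 2 was 0.447 for the 103 genes and 0.850 for the other listed genes.

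The median ratio of co-culture over control was 3.20 in pair 1, 6.74 in pair 2 and 2.89 in pair 3. The other 443 listed genes had medians of 2.35, 3.38 and 1.20. The 273 genes doubled in pairs 1 and 2 only had medians of 2.79, 4.87 and 1.23, so it is pair 3 that separates these sets, by construction. A ratio could not be formed where a control was listed at 0, which left 101, 102 and 94 genes with a ratio in pairs 1, 2 and 3. The smallest of a gene's ratios had a median of 2.56. It lay between 2 and 2.5 for 48 genes, reached 3 for 32, 4 for 15 and 5 for 7, and was highest, at 9.20, for Ptgs2.

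**Figure D1:**
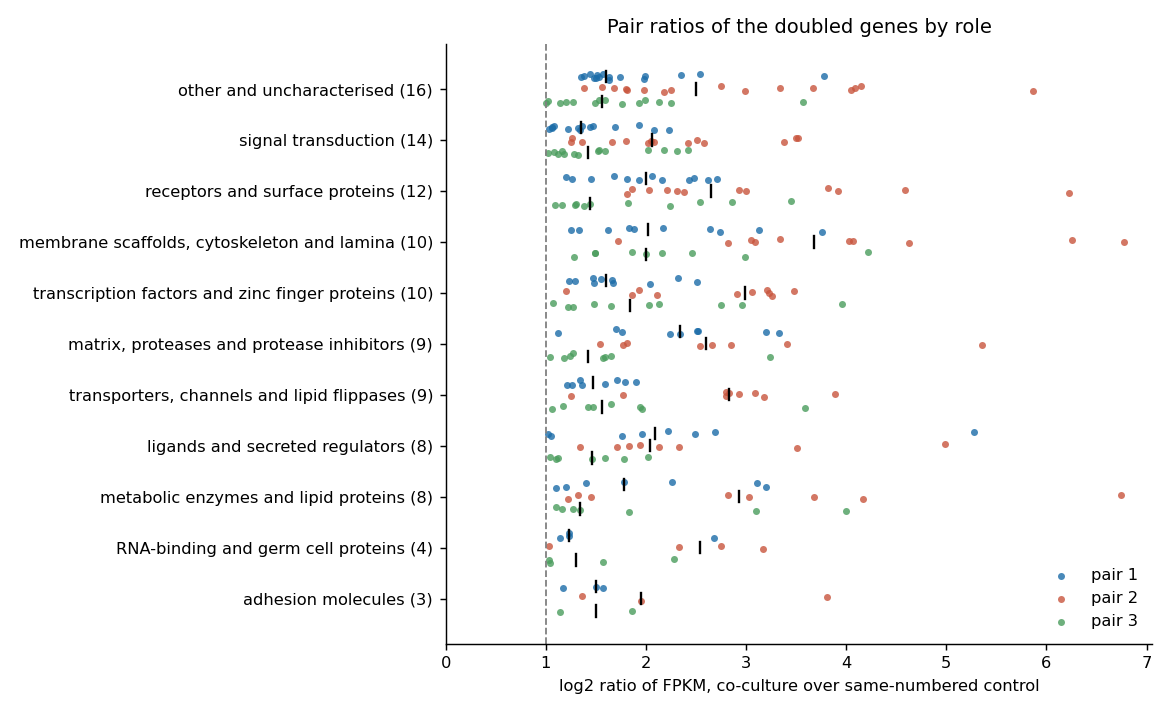
Log2 ratio of FPKM, co-culture over the control of the same number, for the 103 genes in 11 role groups (group size in brackets). Each point is 1 gene in 1 pair, black bars are medians, and the dashed line is the doubling that chose the genes. Pair 2 (red) reaches furthest to the right, and ratios against a control at 0 are left out.

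Most of the genes were weakly expressed. The mean co-culture level had a median of 1.67 FPKM, from 0.158 for Grin2b to 1156 for Igfbp2. It was at least 1 FPKM for 65 genes, at least 5 for 29, at least 10 for 15 and at least 100 for Igfbp2 and Anxa2. The mean control level was under 1 FPKM for 72 genes, and 11 genes were listed at 0 in a control (9 of them in control 3). How many reads lie behind such low values is unknown.

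The choice did not require a co-culture library to exceed the other controls, and here the genes split. Co-culture 3 exceeded all 3 controls for 63 genes, against 33.7% of all 546 listed genes. All 3 co-culture libraries exceeded all 3 controls for 62, against 30.2% of the listed genes. Nothing is read from either excess, since the choice used the same values. For the other 40 genes, co-culture 3 was above control 3 and yet within the range of the controls. Among them were 15 of the 29 genes at 5 FPKM or more: Ahnak, Anxa1, Anxa2, Cavin1, Cpeb4, Ets1, Lgals3, Lmna, Nrp1, Osbpl5, Phlda3, Pxdc1, Tinagl1, Tnfrsf12a and Vgf. Their doubling in pair 3 was reached against control 3 and not against the highest control.

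**Figure D2:**
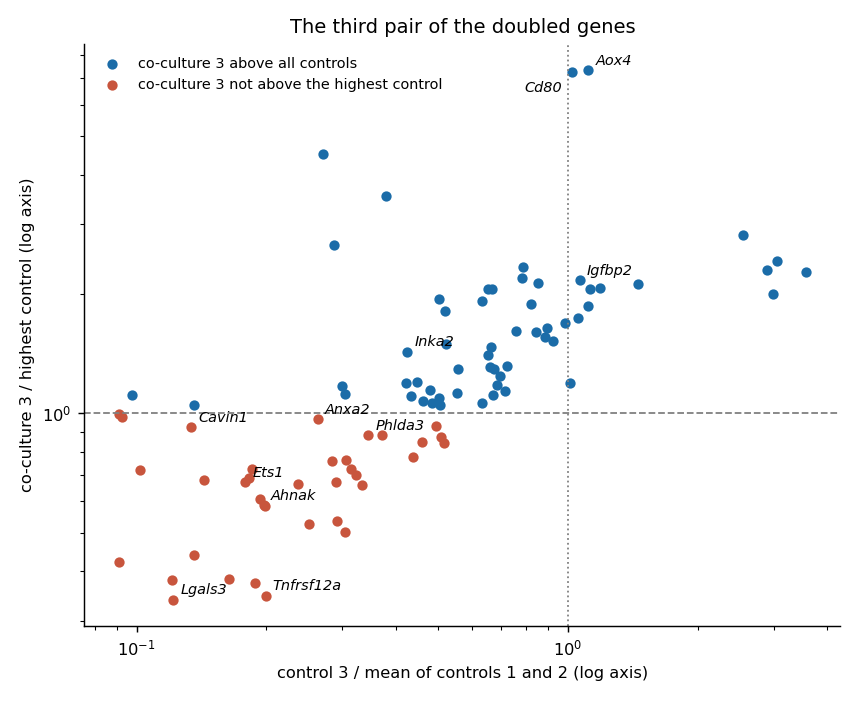
Control 3 over the mean of controls 1 and 2 (x, log axis) against co-culture 3 over the highest control (y, log axis) for 94 genes; the 9 genes with control 3 at 0 are not drawn. Blue points (co-culture 3 above all controls) lie above the dashed line and red points below it. The red points lie to the left of the dotted line, where control 3 is below the mean of controls 1 and 2. The doubling that chose the genes fixed this side for them.

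At the strictest reading, the lowest co-culture library was at least 2 times the highest control for 16 genes, none of which reached a mean of 5 FPKM. Among them were Cd80, Aox4, Ptgs2, 9530053A07Rik, Cyp1a1, Adgb, Podn, Abcc6, Tnfrsf11b, Eng, Ahnak2, Zfp54, Ccno and Fam196a. Cd80, the surface ligand with which antigen-presenting cells costimulate T cells, was at 0.0960, 0.0959 and 0.0978 FPKM in controls 1, 2 and 3 and at 0.590, 1.45 and 0.711 in the co-culture libraries. The controls were nearly equal, and the lowest co-culture library stood 6.03 times above the highest of them. Aox4, an aldehyde oxidase, was at 0.0859, 0.0462 and 0.0737 in controls and at 0.741, 0.326 and 0.630 in co-culture, in co-culture 2 the lowest of the 3.

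Promoters were compared because the genes were high together. RefSeq promoters (build GRCm38.p6, 250 bases before to 50 after each transcript start) matched 75 of the 103 genes. The AP-1 element TGANTCA, which is wider by its middle base than the usual TGACTCA and TGAGTCA sites of FOS and JUN proteins, lay in 11 of 75 (14.7%), in 18 of 324 promoters of the other listed genes (5.56%) and in 2144 of all 27025 promoters (7.93%). The genes with the element were Anxa2, Aox4, Cd80, Gm21761, Lif, Lmna, P2rx7, Ripply1, Serpinb8, Tinagl1 and Zfp853. Of these, Aox4, Cd80, Gm21761, Lif, P2rx7 and Ripply1 had co-culture libraries all above the controls, while Anxa2, Lmna, Serpinb8, Tinagl1 and Zfp853 did not. Windows of up to 20 bases on either side of the element are shown for genes of different roles, on the strand of the gene, with the AP-1 letters in capitals. In Plk2, which had the 1 CRE (TGACGTCA, the element of cyclic AMP response factors) among the 75, the capitals mark that element.
Anxa2 chr9:69453568-69453614 (+): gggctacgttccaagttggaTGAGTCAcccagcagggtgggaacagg
Lif chr11:4257320-4257366 (+): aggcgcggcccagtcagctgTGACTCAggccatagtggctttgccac
Tinagl1 chr4:130175270-130175316 (-): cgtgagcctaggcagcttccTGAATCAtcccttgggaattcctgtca
Cd80 chr16:38458871-38458917 (+): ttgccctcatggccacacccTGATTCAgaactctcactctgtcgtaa
Aox4 chr1:58210329-58210375 (+): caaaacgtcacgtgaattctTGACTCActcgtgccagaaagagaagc
Ripply1 chrX:139782386-139782432 (-): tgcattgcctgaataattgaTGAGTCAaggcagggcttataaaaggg
Serpinb8 chr1:107589963-107590005 (+): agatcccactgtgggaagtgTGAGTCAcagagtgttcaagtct
Plk2 chr13:110394962-110395009 (+): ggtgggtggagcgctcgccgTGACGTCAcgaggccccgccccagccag

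The elements lie at differing distances from the start. Counted with the start as 0, the AP-1 letters of Anxa2 run from -95 to -89, those of Lif from -228 to -222 and those of Aox4 from -48 to -42. The window of Aox4 also holds the E-box CACGTG, which was searched for as its own motif. The CRE, the E-box and the AP-1 pattern with its open middle base read alike on both strands, and every motif was searched on both. A single AP-1 site does not, since TGACTCA reads TGAGTCA on the other strand. The sites printed for Tinagl1 (TGAATCA) and Cd80 (TGATTCA) are not the usual letters.

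The core ACGTG of the hypoxia element, which is also part of the E-box, was in 33.3% of the 75 promoters, 24.4% of those of the other listed genes and 19.7% of all. The TEAD letters GGAATG were in 17.3%, 17.6% and 14.6%, among them Ahnak, Anxa1, Cavin1 and Tinagl1. The GC box GGGCGG was in 58.7%, 60.2% and 35.9%, so the listed genes as a whole were rich in it.

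The remaining motifs were held by few promoters. TATAAA was in 17.3%, 11.1% and 14.2%, the E-box in 12%, 10.8% and 7.24%, and the Grainyhead core AACCGG in 10.7%, 8.95% and 6.78%. The p53 half-site, searched by its degenerate letters, was in 12%, 7.10% and 8.37%. The NF-kB motif was in 9.33%, 13.9% and 8.18%, the GAS motif TTCNNNGAA of STAT proteins in 2.67%, 4.94% and 8.47%, the CArG box in 2.67%, 1.23% and 1.57%, and the CRE in 1.33%, 1.54% and 1.88%. These shares are descriptions with no test, and 28 of the 103 genes have no promoter here. The sets also differed in base composition: the observed over expected CpG ratio had a median of 0.555 in the 75 promoters, 0.689 in those of the other listed genes and 0.389 in all.

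**Figure D3:**
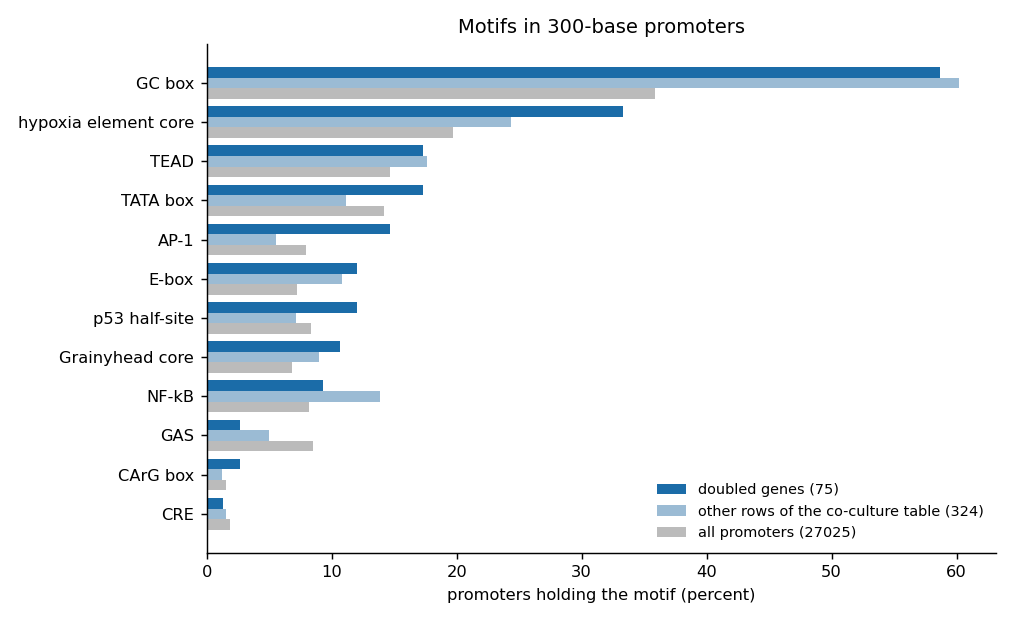
Percent of promoters holding each of 12 motifs, for 75 of the doubled genes, 324 other genes of the co-culture table and all 27025 promoters. AP-1 stands at 14.7%, 5.56% and 7.93%, and the GC box at 58.7%, 60.2% and 35.9%.

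The genes are described below by role. The roles were assigned by hand once the genes were known. Groups without overlap were found for 60.2% of the chosen genes as a whole, against 30.2% of all listed genes. The choice used the same values, so nothing is read from the counts of such genes given by role.

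Among 8 ligands and secreted regulators, the co-culture libraries were all above the controls for 6. Igfbp2 (chromosome 1, 72824503 to 72852474, plus strand, GRCm38), a secreted protein that binds insulin-like growth factors, was the most abundant of the 103. It was at 419.6, 447.0 and 461.8 FPKM in controls and at 872.6, 1594 and 1002 in co-culture. Its controls spanned a narrow range, and each co-culture library lay well clear of them.

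Cxcl12, the chemokine ligand of Cxcr4, was at 1.495, 2.503 and 2.11 FPKM in controls and at 6.96, 8.20 and 4.35 in co-culture, without overlap. Cxcl1, a chemokine that attracts neutrophils, was at 0.533, 0.146 and 0 in controls and at 2.07, 4.62 and 0.729 in co-culture. Both chemokines were highest in co-culture 2 and lowest in co-culture 3. Lif, the cytokine that keeps mouse embryonic stem cells pluripotent through Stat3, was at 0.164, 0.227 and 0.101 in controls and at 1.06, 2.57 and 0.412 in co-culture. It stayed below 3 FPKM and was without overlap, with a smallest ratio of 4.06.

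Artn, a ligand of the GDNF family for nerve and ureteric tissue, and Tnfrsf11b, the decoy receptor osteoprotegerin, also had co-culture libraries all above the controls. Tnfrsf11b was at 2.63 in co-culture 1, against 0.568 and 0.316 in the others, 1 of the 24 genes led by that library. Vgf, the precursor of neuropeptides, was at 2.01, 3.04 and 1.11 in controls and at 6.80, 13.3 and 2.37 in co-culture. Sema3b, a guidance cue that binds neuropilins, was at 2.59, 3.02 and 0.664 in controls and at 5.25, 7.67 and 2.00 in co-culture. For Vgf and Sema3b, co-culture 3 lay below a control.

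Of 12 receptors and surface proteins, 6 had groups without overlap. Tnfrsf12a, the receptor for the cytokine TWEAK that is known to be induced in injured tissue, was at 3.43, 11.98 and 1.53 FPKM in controls and at 18.5, 96.1 and 4.15 in co-culture. Library 2 was by far the highest within each group. Nrp1, the neuropilin through which cells sense class 3 semaphorins and VEGF, was at 5.11, 2.45 and 1.15 in controls and at 12.2, 8.57 and 2.56 in co-culture, with library 1 highest and library 3 lowest in both groups. Both genes overlapped between groups.

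The other 10 surface proteins had mean co-culture levels from 0.158 to 2.10 FPKM. Eng, the endothelial co-receptor for TGF-beta ligands, was at 0.165, 0.115 and 0.203 in controls and at 0.528, 0.874 and 0.432 in co-culture. Its groups did not overlap, and the same held for Tnfrsf23 (a decoy receptor for TRAIL in the mouse), Cd80, P2rx7 (an ATP-gated channel) and Vmn2r1 (a vomeronasal receptor). P2ry2 (a nucleotide receptor), Ulbp1 (a ligand of the killer cell receptor NKG2D), Tshr (the thyrotropin receptor) and Grin2b (an NMDA receptor subunit) overlapped.

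The 10 proteins of membrane scaffolds, cytoskeleton and lamina had the largest smallest ratios of the role groups, with a median of 3.59 against 2.56 over all 103. Yet co-culture 3 exceeded all controls for only 3 of the 10, Synm and Ahnak2 among them, the smallest share of any role group. Anxa2 (chromosome 9, 69453620 to 69491795, plus strand), a calcium-dependent phospholipid-binding protein, was at 39.9, 33.4 and 9.63 FPKM in controls and at 100.4, 235.9 and 38.6 in co-culture. Co-culture 3 lay just below control 1.

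Anxa1, a related annexin known to restrain inflammation, was at 0.596, 0.475 and 0 in controls and at 3.99, 51.8 and 0.423 in co-culture. Lgals3, a lectin that binds beta-galactosides, was at 0.759, 3.08 and 0.233 in controls and at 6.64, 76.1 and 1.04 in co-culture. In both genes co-culture 2 was more than 10 times any other library, so that the co-culture means, 18.8 ± 28.7 and 27.9 ± 41.8 FPKM (SD, n = 3), had a spread larger than the mean. Cavin1, which coats caveolae, was at 2.35, 1.72 and 0.272 in controls and at 10.6, 28.03 and 2.17 in co-culture.

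Ahnak, a very large scaffold protein that binds annexin 2 complexes, was at 1.87, 1.20 and 0.303 in controls and at 11.6, 12.2 and 1.10 in co-culture. Lmna, the gene of lamins A and C, was at 3.64, 4.96 and 1.08 in controls and at 8.69, 16.4 and 2.61 in co-culture. In these and the annexins, co-culture 3 was closer to controls 1 and 2 than to the other co-culture libraries, and control 3 was the lowest library of all 6. Synm, an intermediate filament protein of muscle, was the most abundant scaffold gene without overlap, at 1.16, 0.615 and 0.580 in controls and at 3.59, 5.24 and 1.63 in co-culture.

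**Figure D4:**
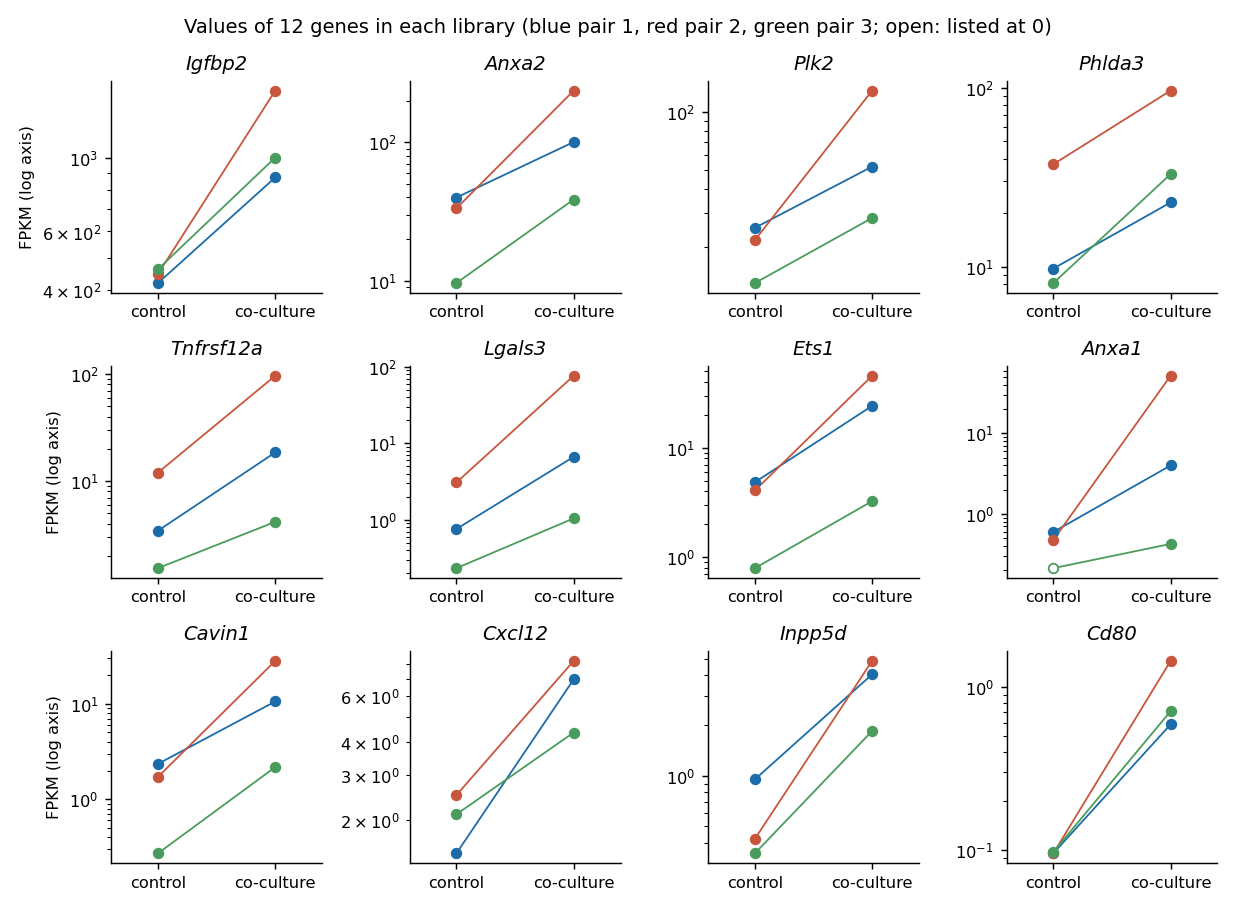
FPKM (log axis, own scale for each gene) of 12 genes in each control and the co-culture library of the same number. Blue is pair 1, red pair 2 and green pair 3, and the open circle marks Anxa1, listed at 0 in control 3. For Anxa1, Anxa2, Cavin1, Ets1, Lgals3, Phlda3 and Tnfrsf12a the green co-culture point does not exceed the highest control.

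In 14 genes of signal transduction, the groups did not overlap for 8. Plk2 (chromosome 13, 110395046 to 110400844, plus strand), a kinase induced by p53 and by neuronal activity, was at 25.1, 21.7 and 13.0 FPKM in controls and at 52.3, 129.8 and 28.3 in co-culture. Phlda3, a p53 target that holds back the kinase Akt, was at 9.76, 37.3 and 8.10 in controls and at 22.8, 96.1 and 32.8 in co-culture. Plk2 did not overlap between groups. For Phlda3, control 2 exceeded co-culture 1 and 3.

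Inka2, an inhibitor of the kinase PAK4, was at 1.03, 2.82 and 0.816 in controls and at 3.94, 8.94 and 4.04 in co-culture, without overlap. Ppfia4, a liprin scaffold of synapses, was at 2.25, 2.04 and 0.674 in controls and at 5.78, 4.89 and 1.63 in co-culture. Its ratios, 2.57, 2.40 and 2.42, were the most alike of the 92 genes with a ratio in every pair. Their log2 SD was 0.054, where the median over those genes was 0.679, although co-culture 3 lay below controls 1 and 2.

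Inpp5d, the inositol phosphatase SHIP1, and Lyn, a Src family kinase, are best known from blood cells. Inpp5d was at 0.954, 0.422 and 0.346 in controls and at 4.03, 4.84 and 1.85 in co-culture, and Lyn at 0.650, 0.427 and 0.0983 and at 1.77, 2.44 and 0.447. Inpp5d did not overlap between groups and Lyn did. Of 15 macrophage and leukocyte markers none is a listed gene, so such cells cannot be assessed from this table. The other genes of the group, among them Cdc42bpg (a kinase that binds Cdc42), Ripk4 (a kinase of epidermal differentiation), Ppp2r2b (a subunit of the phosphatase PP2A), Plcl1, Arhgef28, Def6, She and Map3k5 (a kinase of the stress response), had mean co-culture levels from 0.440 to 9.95 FPKM.

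The 10 transcription factors and zinc finger proteins were led by Ets1 (chromosome 9, 32636221 to 32757820, plus strand), a factor of vessels, lymphocytes and migrating neural crest. It was at 4.86, 4.08 and 0.797 FPKM in controls and at 24.2, 45.5 and 3.26 in co-culture. Co-cultures 1 and 2 stood far above all controls, and co-culture 3 lay below controls 1 and 2. Zfp365 was at 3.10, 2.49 and 2.36 in controls and at 7.59, 18.7 and 4.96 in co-culture, without overlap.

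Tead4, the DNA-binding partner of YAP that trophectoderm needs, was at 0.526, 1.20 and 0.166 in controls and at 1.66, 4.34 and 0.731 in co-culture. Its groups overlapped, as did those of Stat5a, Runx1 (a factor of blood stem cell formation) and Zfp853. Epas1 (HIF-2 alpha), Mafa (known from pancreatic beta cells), Ripply1 (a repressor in forming somites) and Zfp54 did not overlap, at mean co-culture levels from 0.775 to 2.03 FPKM. Ripply1 had its largest ratio, 15.5, in pair 3, where its control was at 0.0525.

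Among 9 genes of matrix, proteases and their inhibitors, Tinagl1, a protein of basement membranes, was at 1.65, 2.87 and 0.370 FPKM in controls and at 5.57, 18.1 and 1.10 in co-culture, with overlap. St14, the epithelial membrane protease matriptase, was at 1.33, 0.950 and 0.575 in controls and at 4.32, 10.1 and 1.39 in co-culture. Smoc2, a calcium-binding matrix protein, was at 0.760, 1.21 and 1.10 in controls and at 6.97, 8.68 and 2.25 in co-culture. St14 exceeded its highest control in co-culture 3 by a small step, and Smoc2 by more.

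Mean co-culture levels below 1 FPKM were those of Podn, Hs3st4 (a heparan sulfate sulfotransferase), Serpinb8, Cemip (which breaks down hyaluronan), Svep1 and Col19a1. Fibrillar collagens were not among the 103. Of 14 listed genes of interstitial matrix, none was doubled in all 3 pairs, and their median log2 ratio was 1.69 in pair 1, 3.76 in pair 2 and 0.29 in pair 3. Over all listed genes, 21.4% were doubled, and the medians were 1.32, 1.94 and 0.39.

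Among 8 metabolic enzymes and lipid proteins, Osbpl5, which moves lipids between the endoplasmic reticulum and the plasma membrane, was at 6.98, 6.58 and 2.19 FPKM in controls and at 15.02, 15.4 and 4.88 in co-culture. Its ratios of 2.15, 2.34 and 2.23 were nearly equal, while co-culture 3 lay below controls 1 and 2. Lpin1, a phosphatidate phosphatase of lipid synthesis, was at 2.92, 1.65 and 1.44 in controls and at 7.70, 13.5 and 3.09 in co-culture. The lowest of these exceeded the highest control by little.

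Ptgs2, the inducible cyclooxygenase of prostaglandin synthesis, was at 0.0325, 0.0281 and 0 in controls and at 0.299, 3.00 and 0.118 in co-culture. Cyp1a1, the monooxygenase induced through the aryl hydrocarbon receptor, was at 0, 0.184 and 0.281 in controls and at 3.26, 3.30 and 0.679 in co-culture. Neither overlapped between groups, and each had a control listed at 0. Ppp1r3e, a glycogen-targeting subunit of protein phosphatase 1, kept its ratios between 2.30 and 2.54, at 0.593, 0.431 and 0.248 in the controls and 1.36, 1.08 and 0.630 in co-culture. The rest of the group was Aox4, Pdk4, the kinase that turns off pyruvate dehydrogenase, and the sialyltransferase St6galnac2.

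Of 9 transporters, channels and flippase subunits, Slc5a3, the sodium/myo-inositol transporter, was at 2.501, 0.724 and 1.12 FPKM in controls and at 6.32, 10.7 and 3.10 in co-culture. It shares 159 exon bases with Mrps6 on the same strand, so reads may have been split between them. Slc12a4, a potassium-chloride cotransporter, was the highest of the group, at 3.83, 3.46 and 1.11 in controls and at 8.89, 29.5 and 4.28 in co-culture. Neither overlapped between groups, nor did Abcb1b (a drug efflux pump), Slc40a1 (the iron exporter ferroportin) or Abcc6. The potassium channel genes Kcna6 and Kcnf1, Xkr4 and Tmem30b overlapped.

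Cpeb4, Tent5b, Nanos1 and Dazl encode RNA-binding or germ cell proteins. Cpeb4, which controls translation through poly(A) tails, was at 6.97, 4.27 and 1.04 in controls and at 16.3, 8.74 and 5.05 in co-culture, with overlap. Nanos1 was at 1.33, 1.04 and 1.06 in controls and at 2.94, 5.23 and 2.19 in co-culture, without overlap. The 3 adhesion molecules, Pcdh17, Dscaml1 and Pcdhb14, stayed below 1 FPKM on average.

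The other 16 genes include several without a known function, and 13 of them had groups without overlap. That share was 60.2% over all the chosen genes, and whether the roles differ in it was not tested. Fam43a was at 2.37, 4.68 and 1.77 in controls and at 9.41, 21.3 and 5.13 in co-culture. Pxdc1 was at 1.09, 3.00 and 0.595 in controls and at 4.31, 10.5 and 2.02 in co-culture, with ratios of 3.96, 3.50 and 3.39. Fam43a did not overlap and Pxdc1 did.

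Rnf128, the E3 ubiquitin ligase GRAIL of T cell anergy, was at 1.80, 0.592 and 0.853 in controls and at 4.59, 34.5 and 2.05 in co-culture. Co-culture 2 gave it the widest spread of ratios among the 92 genes, with a log2 SD of 2.63. The little-studied genes 6430550D23Rik, Gm49673 and Sec14l5 were the only ones of the 103 highest in co-culture 3. Of these, Gm49673 shares 909 exon bases with Rnaset2a on the same strand and 6430550D23Rik shares 1149 with Cep250 on the opposite strand. Exons of 27 of the 103 genes overlap those of another gene, 23 of them on the opposite strand, and whether the counting used strand is not stated in the labels.

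Around the doubling that chose the genes, values were close on either side. Just inside were 6430550D23Rik with a smallest ratio of 2.003, Arc with 2.027 and Sema3b with 2.027. Arc, an immediate early gene of neurons, was at 1.03, 1.15 and 0.733 in controls and at 2.91, 2.99 and 1.49 in co-culture. Just outside, at 1.999, was the glycolytic gene Aldoc, at 2.46, 2.62 and 7.16 in controls and at 7.71, 10.4 and 14.3 in co-culture, followed by Ypel2 and Zbtb8b with 1.996 and 1.991.

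Lists of known pathway genes show where these genes stand among the listed ones. Of 7 listed genes of the p53 response, 5 were doubled in all 3 pairs, of which Phlda3 and Plk2 are described here, against 21.4% over the table. Of 10 listed genes of NF-kB and cytokine signalling, 5 were doubled, including Cxcl1, Cxcl12, Lif and Tnfrsf12a. Of 4 listed endothelial genes, 3 were doubled, including Eng. Both listed genes of lipid metabolism, Lpin1 and Ptgs2, were doubled.

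Of 9 listed YAP and TEAD targets, 1 (Tead4) was doubled in all 3 pairs. So were 2 of 11 listed genes of the SRF and actin cytoskeleton list (Anxa1 and Anxa2). Of 10 in the AP-1 and immediate early list, 2 were doubled (neither among the 103). The share over all 546 listed genes was 21.4%. The median log2 ratios of these lists in pair 3 were 0.30, 0.34 and 0.51, against 1.36, 1.45 and 1.92 in pair 1. Over all listed genes, the medians were 0.39 in pair 3 and 1.32 in pair 1. These lists hold few listed genes and were read with earlier results known, and nothing is called particular to them.

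Marker lists of other cell types had few members in this table. None of 10 erythroid and none of 15 macrophage and leukocyte markers was listed. Salivary acinar and secretory markers had 1 listed gene of 20 and salivary ductal and progenitor markers 2 of 17, and none of these was doubled in all 3 pairs. The summed level of the 4 listed mesenchyme and smooth muscle markers was 2.05, 8.71 and 1.55 FPKM in the controls and 27.5, 268.5 and 1.43 in co-culture, so co-culture 2, in which 76 of the 103 genes were highest, was also the highest for these markers. The summed level of the 4 listed endothelial markers was 4.05, 1.75 and 0.995 in the controls and 10.7, 43.0 and 2.08 in co-culture, with the co-culture libraries in the same order.

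Other marker lists also differed by library. Of 22 trophoblast markers, 4 were listed: Krt19, Peg10, Wnt7b and Lgals3, the 1 among the 103. Their summed level was 332.1, 141.1 and 258.1 FPKM in the controls and 795.5, 972.5 and 245.6 in co-culture. Lgals3 held little of this: 0.759, 3.08 and 0.233 FPKM of the control sums, 6.64, 76.1 and 1.04 of the co-culture ones. Krt19 held at most its sum with Sox10: 7.88, 11.4 and 7.82 across controls, 29.1, 154.5 and 13.4 across co-cultures. Most of each trophoblast sum was therefore Peg10 and Wnt7b, and the sums say little about other trophoblast markers. The 3 listed neural progenitor and neuron markers of 17 (Fabp7, Hes5 and Pou3f1) summed to 158.7, 278.6 and 185.0 in the controls and to 58.8, 56.6 and 275.9 in co-culture, so they were low in co-cultures 1 and 2 and high in co-culture 3, the reverse of the order of most of the 103 genes. The 2 listed neural crest markers of 15, Sox10 and Ets1 (the latter among the 103), summed to 6.03, 9.08 and 2.39 in the controls and to 27.1, 45.8 and 5.44 in co-culture. Most of each co-culture sum was Ets1, at 24.2, 45.5 and 3.26, a gene chosen for its rise. In pair 2 the median log2 ratio of the 2 genes was -0.31 although Ets1 rose, so Sox10 fell there. Lrp2, the 1 listed extraembryonic endoderm marker of 26, was at 4.75, 3.22 and 2.93 in controls and at 15.1, 31.4 and 3.76 in co-culture. The part of all these lists in the values of the 103 genes was not tested.

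On the chromosomes, 3 pairs of the 103 genes lie within 200 kb of each other. Tnfrsf23 and Osbpl5 on chromosome 7 are 2890 bases apart, Stat5a and Cavin1 on chromosome 11 are 71564 bases apart and Rnf128 and Ripply1 on the X chromosome 106404. In library pairs 1, 2 and 3, Tnfrsf23 had ratios of 6.53, 24.1 and 2.45, and Osbpl5 of 2.15, 2.34 and 2.23. Stat5a had ratios of 2.77, 2.30 and 7.79, and Cavin1 of 4.49, 16.3 and 7.97; both had control 3 lowest and groups that overlapped. Rnf128 had ratios of 2.55, 58.2 and 2.41, and Ripply1 of 2.79, 9.35 and 15.5. Both were highest in co-culture 2 and had groups without overlap. Most of the 103 genes share such traits: control 3 was lowest for 70.9%, co-culture 2 highest for 73.8%, and groups did not overlap for 60.2%. Nothing is read from neighbours that share them, and neighbours among the other listed genes were not counted.

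A fit over the whole co-culture table used the values that chose these genes, and nothing is read from the 103 in it. Without pairing, 0 of 425 genes passed (limma, adjusted p under 0.05; 0% called), and 86 (20.2%) had an unadjusted p under 0.05. With the library number as a block, 38 (8.94%) were called higher, 13 of them among the 65 of the 103 genes that were tested.

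The cocktail libraries were not used in choosing the genes. The authors deposited, for that experiment, FPKM of 633 genes that they had called changed, so a gene outside that table has no value here. The table holds 12 of the 103 genes (11.7%), 54 of the other 443 genes of the co-culture table (12.2%) and 66 of all 546 (12.1%), so the doubled genes were listed about as often as the rest. Of the 12, the authors' deposited table calls 9 up and 3 down. Over all genes of the authors' deposited table, 57.3% are up and 42.7% down, and it calls 28 of the 54 other shared genes up and 26 down.

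The fit here (limma on log2(FPKM + 1), on the 530 genes whose mean reached 1 FPKM in a group) called 59.2% of them higher and 40.8% lower. It tested 9 of the 12 genes, of which 6 rose and 3 fell. All 530 genes tested were called, as were all 633 without the level filter. The authors chose the table on changes in these same libraries, so a call was largely set by that choice. The p-values below describe the genes and are not separate evidence of a change.

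Ahnak was at 1.72, 1.22 and 1.70 FPKM in the cocktail controls and at 4.32, 4.60 and 4.87 with the cocktail. It rose by 1.14 on the log2(FPKM + 1) scale (SE 0.12, limma adjusted p = 1.55e-05), with all 3 cocktail libraries above the controls. Lmna was at 4.27, 4.01 and 3.76 in controls and at 9.56, 8.60 and 8.54 with the cocktail, a rise of 0.98 (SE 0.09, limma adjusted p = 8.83e-06). The replicates of both were tight here, unlike their co-culture libraries.

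Cxcl12 was at 0.945, 0.708 and 1.23 FPKM in controls and at 1.90, 2.98 and 2.49 with the cocktail, and it rose by 0.81 (SE 0.15, limma adjusted p = 0.000597). Tmem51, a transmembrane protein, was at 0.769, 0.727 and 0.603 in controls and at 2.18, 2.53 and 2.5 with the cocktail, a rise of 1.00 (SE 0.10, limma adjusted p = 1.31e-05). Neither overlapped between groups. Ppp2r2b was at 1.49, 1.35 and 1.18 in controls and at 2.62, 3.82 and 3.23 with the cocktail, a rise of 0.85 (SE 0.13, limma adjusted p = 0.000198).

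Vgf was at 2.09, 0.739 and 1.03 in controls and at 2.42, 3.98 and 2.12 with the cocktail, a rise of 0.76 (SE 0.24, limma adjusted p = 0.0124). The lowest cocktail library barely exceeded the highest control. Without the library in the second cocktail column the change was 0.56 and no longer passed (limma adjusted p = 0.0666), and under quantile normalization it was 0.37 (limma adjusted p = 0.136). Under the other alternatives its limma adjusted p ran from 0.00225 to 0.0481.

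Osbpl5, Ccno and Tead4 went the other way from their co-culture ratios. Osbpl5 was at 14.2, 13.3 and 12.1 FPKM in controls and at 5.56, 8.12 and 5.60 with the cocktail, and it fell by 0.95 (SE 0.14, limma adjusted p = 0.000156). Ccno, a cyclin-like protein of multiciliated cells, was at 1.23, 1.15 and 0.929 in controls and at 0.486, 0.184 and 0.180 with the cocktail, and it fell by 0.72 (SE 0.12, limma adjusted p = 0.000282). Tead4 was at 0.948, 0.974 and 1.21 in controls and at 0.264, 0.383 and 0.529 with the cocktail, and it fell by 0.56 (SE 0.10, limma adjusted p = 0.000618).

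All 3 were lower in every cocktail library than in every control. Their ratios in co-culture pairs 1, 2 and 3 were 2.15, 2.34 and 2.23 for Osbpl5, 2.80, 7.93 and 3.82 for Ccno and 3.16, 3.62 and 4.39 for Tead4. Whether the 2 responses differ was not tested, since the tables were normalized separately. The control levels also differed: Ccno was at 0.175 ± 0.060 FPKM in the co-culture controls and 1.10 ± 0.155 in the cocktail controls, and Osbpl5 at 5.25 ± 2.66 and 13.2 ± 1.09 (SD, n = 3).

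Runx1, Pcdh17 and Plcl1 lay below the level filter, and their changes come from the fit of all 633 genes without it. Runx1 was at 0.0546, 0.0208 and 0.0210 FPKM in controls and at 0.346, 0.192 and 0.352 with the cocktail, and it rose by 0.33 (SE 0.06, limma adjusted p = 0.000564). Plcl1, a catalytically inactive relative of phospholipase C, was at 0.237, 0.355 and 0.311 in controls and at 0.816, 0.769 and 0.672 with the cocktail, and it rose by 0.43 (SE 0.07, limma adjusted p = 0.000349). Pcdh17, a protocadherin, was at 0.0892, 0.0744 and 0.101 in controls and at 0.229, 0.189 and 0.268 with the cocktail, and it rose by 0.17 (SE 0.05, limma adjusted p = 0.00475). The groups of all 3 were apart, at levels where the scale of log2(FPKM + 1) makes changes look small. The authors' deposited table gives log2 fold changes of 3.20 for Runx1, 1.35 for Plcl1 and 1.404 for Pcdh17.

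**Figure D5:**
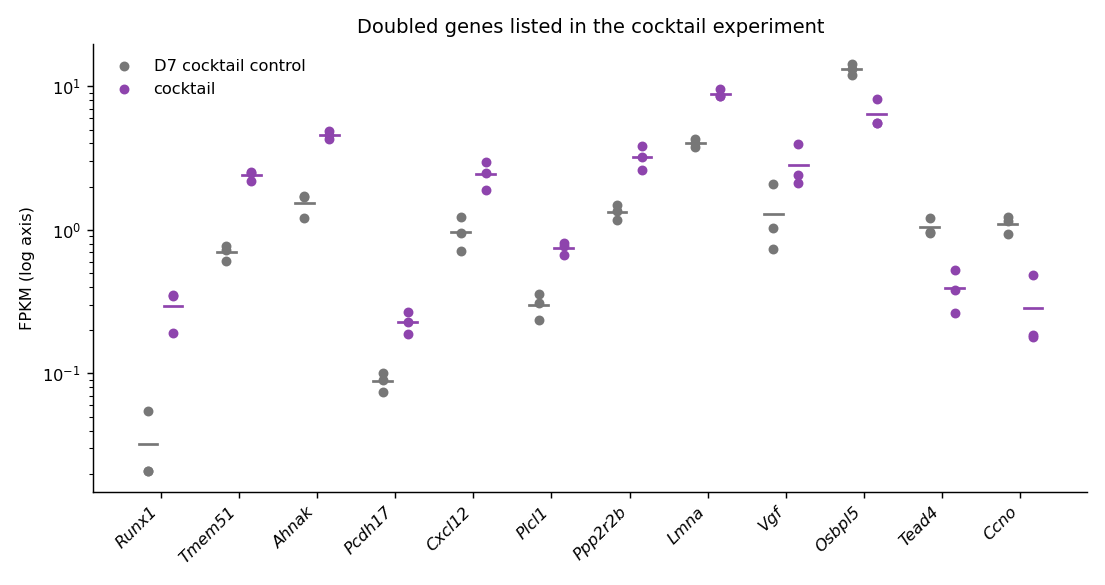
FPKM (log axis) of the 12 doubled genes in the authors' cocktail table, ordered by the ratio of cocktail to control means. Points are the 3 libraries of each group and bars are means; Osbpl5, Tead4 and Ccno, at the right, are the 3 genes lower with the cocktail.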

How the data were processed

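Poly(A) RNA-seq of 12 libraries in 4 groups of 3 was analysed. HISAT2 and GRCm38 are named in the submitters' processing notes, without a version; no quantifier or annotation is named there. The co-culture values were deposited for 546 genes selected by the authors, without a unit; FPKM was inferred. Across 66 genes in both tables, log2 control means correlated at r = 0.833, which cannot settle the unit. The cocktail table holds FPKM per the file headers, with the authors' log2 fold change and p-value (FDR), for 633 genes they called changed. Its column names give a group and a number that could not be matched to single samples, so the columns served as unpaired replicates, and 12 further columns of per-sample values were not used, including the count columns, since 1 measure per group was kept.

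The members and lists were chosen with earlier results of these data known. Members were rows with a co-culture value above 0 and at least 2 times that of the control of the same number, minus 51 named genes. Each table was fitted alone with limma 3.58.1 (R 4.3.3, intensity trend) on log2(value + 1), using the genes whose mean reached 1 in a group, with Benjamini-Hochberg adjustment over all genes tested and a threshold of 0.05. Fold changes on this scale understate those of low genes. On simulated data the limma fit recovered 29% of 1-unit and 69% of 2-unit log2 changes for the co-culture comparison (425 genes, 0% false calls) and 99% and 100% for the cocktail (530 genes, 2.42% false calls). The simulated noise was drawn separately for each gene and library. Shifts of a library shared by many genes, as seen in the co-culture data, were not simulated, so these rates may not hold there.

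Deviations from group means correlated between co-culture libraries of the same number at 0.606, 0.143 and 0.256 across 425 genes, and at most 0.0419 between different numbers. Each same-number value exceeded the threshold of 0.1. The choice of genes took the numbers as pairs, while the main limma fit used no pairing and had the replicate block as an alternative. The labels state no pairing. The genes were probably selected on the first 2 pairs, which bears on these correlations.

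Genes with values in the text were taken by rule: the 12 with the largest smallest ratio among those at 5 FPKM or more, the 8 with the highest mean, those in the cocktail table, those in a pathway list at 2 FPKM or more, those next to the threshold and the 5 with the most even ratios. Others named with values (such as Cd80, Lif, Tnfrsf11b, Eng, Synm, Inpp5d, Lyn, Zfp365, St14, Smoc2, Ptgs2, Cyp1a1, Slc12a4, Cpeb4, Nanos1, Ripply1 and Rnf128) were chosen after their values were seen. Some genes of the set are counted but not reported by name here. Symbols and exons came from GENCODE M21. Alternatives were other fold thresholds, pseudocounts, filters and normalizations, leaving out libraries, and a replicate block.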

Additional observations from a re-analysis of the deposited data

How the results depend on the processing

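The number of genes in the set depended on how it was defined. It was 161 at 1.5-fold and 32 at 3-fold, 11 for ratios of value + 1, 65 with a co-culture mean of at least 1 FPKM, 16 after quantile normalization and 16 where the lowest co-culture library had to be 2 times the highest control. With each co-culture library at least 2 times the mean of the 3 controls, an alternative chosen after seeing the data, it was 54, of which 39 are among the 103. With co-culture 3 set against controls 1 and 2, also added later, it was 81, of which 37 are among the 103. Leaving out 1 pair gave 103 to 342, the highest without pair 3. Centring the ratios gave 75, of which 74 are among the 103. The median log2 ratio of 2.02 was 0.88 for value + 1, 0.92 after quantile normalization and 2.08 after centring.

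Over the co-culture table, 0 genes passed in limma, 39 with the replicate block and 2 without both libraries numbered 3 (added later). Leaving out 1 library gave 0 to 330, the highest without co-culture 3. The list was probably selected on pairs 1 and 2, so nothing is read about co-culture 3 from that count. The same holds for the set size without pair 3. The other co-culture alternatives gave 0. Of the 530 cocktail calls, 252 genes were left and called at a filter of 5, with 2 of the 9 doubled genes. Leaving out 1 library gave 526 to 532, and 8 to 9 of the doubled genes. Quantile normalization gave 478 calls and 8 of the doubled genes. Under it, the rises of the doubled genes were smaller (Lmna 0.25, limma adjusted p = 0.0362). Their falls were larger (Osbpl5 -1.90, limma adjusted p = 8.40e-07). The planned test on the count columns was not run, since those columns were not used. The cocktail columns are numbered 1 to 3 in both groups, while the labels number these controls 4 to 6. Deviations of same-numbered columns correlated at -0.0328, 0.0720 and -0.150 across 530 genes, so the numbers were not taken as pairs. A replicate block by column number, added later, gave 530 calls and all 9 doubled genes. Of 91 recomputed cocktail changes, 89 kept direction and call, 2 (both Vgf) lost the call and 0 reversed. Since the authors chose these genes as changed, the kept calls are not separate evidence. The causes of these shifts were not tested, apart from the fewer genes a stricter filter leaves. Selected tables, 3 libraries a group and unknown co-culture depth limit all values.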

Other observations

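The control groups of the 2 experiments were normalized separately, and no test compares them. Among shared genes, Cxcl12 was at 2.04 ± 0.508 FPKM in the co-culture controls and 0.961 ± 0.261 in the cocktail controls, and Runx1 at 0.0539 ± 0.0334 and 0.0321 ± 0.0195 (SD, n = 3). Lmna was at 3.22 ± 1.97 and 4.01 ± 0.256, Ahnak at 1.12 ± 0.786 and 1.55 ± 0.286 and Vgf at 2.05 ± 0.969 and 1.28 ± 0.709. For Runx1, Lmna, Ahnak and Vgf, the means of the 2 control groups differed by less than the larger SD.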
